A study of Mus musculus with 2 samples.

Results

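The miR-344 genes form a group of rodent microRNA (miRNA) genes on mouse chromosome 7. They were taken here as every counted gene whose GENCODE M21 symbol is Mir344 alone or Mir344 followed by a letter, which gave 7 of the 2202 miRNA genes counted. These are Mir344, Mir344b, Mir344c, Mir344e, Mir344f, Mir344g and Mir344i. The 6 miR-344 genes with a copy number in their symbol (Mir344-2, Mir344d-1, Mir344d-2, Mir344d-3, Mir344h-1 and Mir344h-2) were left out of the members and are described beside them. The tissue was cortex from the left hemisphere of B6CASTF1/J males, F1 hybrids of B6 and CAST mice, on postnatal day 10. Per the labels there is 1 group with 2 biological replicates, each from a male with its own number, with no treatment and no other genotype, tissue, age or sex, so no conditions were compared. The animals share 1 donor entry in the labels.

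A miRNA gene is transcribed into a long primary RNA, from which a hairpin is cut. Its arms give rise to mature miRNAs called 5p and 3p after the end of the hairpin they come from. Bases 2 to 8 of a mature miRNA, the seed, pair with target messenger RNAs, so miRNAs that share a seed can share targets. The miR-344 family is known from rodent brain. Its hairpins lie in the part of mouse chromosome 7 that corresponds to the human Prader-Willi and Angelman syndrome region, whose genes Snrpn, Ndn, Magel2 and Mkrn3 are imprinted and expressed from the paternal chromosome.

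The mature sequences of the members all differ from one another, but some are also in hairpins outside the members, as given below. The sequences come from RefSeq (GRCm38.p6), which held all 7 members, run 5′ to 3′, and have the seed in capitals. The first 4 lines are the 5p miRNAs that share the seed GUCAGGC, and the next pair are the 5′ arm miRNAs of Mir344f and Mir344i, whose starts differ from it by a base or by a shift.
miR-344-5p: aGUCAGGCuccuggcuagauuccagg
miR-344b-5p: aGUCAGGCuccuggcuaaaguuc
miR-344c-5p: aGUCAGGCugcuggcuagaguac
miR-344g-5p: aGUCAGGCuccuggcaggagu
miR-344f-5p: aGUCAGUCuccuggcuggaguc
miR-344i: aAGUCAGGcuccuggcugga
The 3p miRNAs of the same genes differ more in their seeds, and miR-344-3p and miR-344c-3p share theirs.
miR-344-3p: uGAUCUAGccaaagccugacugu
miR-344c-3p: uGAUCUAGucaaagccugacagu
miR-344b-3p: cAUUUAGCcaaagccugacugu
miR-344f-3p: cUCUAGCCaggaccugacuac
miR-344g-3p: cAGGCUCUagccaggggcuuga
The mature miRNAs of Mir344e carry other seeds on both arms.
miR-344e-5p: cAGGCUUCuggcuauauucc
miR-344e-3p: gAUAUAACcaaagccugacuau

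The 13 mature miRNAs of the 7 members have 9 distinct seeds. GUCAGGC is carried by Mir344, Mir344b, Mir344c and Mir344g, and GAUCUAG by Mir344 and Mir344c. Counted from 1 at the 5′ end, miR-344c-3p differs from miR-344-3p by C9U and U21A, both outside the seed. Outside the family, 2 mouse miRNAs in the RefSeq table used carry a seed of a member. They are miR-410-3p, with the seed of miR-344e-3p, and miR-7070-3p, with the seed of miR-344g-3p.

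All members lie on the minus strand of chromosome 7 within 350 kb, from 61735537 to 62085310 (mm10). With the genes that have a copy number the region starts at 61683124, and with 7 further annotated hairpins that have only a Gm symbol it holds 20 hairpins in 411 kb. The Gm hairpins were included after their values had been seen. Mir344e (61735537 to 61735602), Mir344b (61790519 to 61790581), Mir344c (61837311 to 61837402) and Mir344 (61877770 to 61877864) lie in introns of the long noncoding RNA gene A230057D06Rik, on the same strand. Mir344g (61982289 to 61982359) overlaps an exon of the noncoding gene A330076H08Rik at that gene's 5′ end. Mir344f (62046181 to 62046248) and Mir344i (62085223 to 62085310) overlap no other annotated gene. Imprinting was not tested here, for the host genes or for any other gene. Of the imprinted genes named above (Snrpn, Ndn, Magel2 and Mkrn3), Ndn is the nearest and starts 261 kb beyond the last member. The nearest counted miRNA gene on that side is Mir211, 2121 kb away, with 3 and 2 reads in replicates 1 and 2. On the other side it is Gm23917, 1.76 kb from Mir344e, with 0 reads in both libraries.

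Reads were counted per hairpin, so the 5p and 3p miRNAs of a gene are summed. The reads assigned to miRNA genes in the sense direction were 2677910 in replicate 1 and 1750076 in replicate 2. Levels are CPM, in which the reads of a gene are scaled to a common total of assigned reads, and were not divided by hairpin length because an insert below 30 bases comes from 1 arm. A count of 3 reads, taken as the most that a count of 0 allows, equals 1.12 CPM in replicate 1 and 1.71 CPM in replicate 2. Of the mapped reads, 51.2% in replicate 1 and 49.2% in replicate 2 had several matches in the genome. The files list them in a row of their own, and they are taken here to be in no gene's count, which the sources used do not state. Intervals are 95% Wilson intervals, which for a count of 0 reach somewhat higher, to 1.43 CPM in replicate 1 and 2.20 CPM in replicate 2. Like the limits of 3 reads, the intervals cover counting error alone, because PCR copies of a molecule are counted separately. In bulk tissue, fewer cells of a type and less RNA per cell cannot be told apart.

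The tissue label was checked against short marker lists, which cannot tell cortex from other brain regions. The 12 neuron-associated genes summed to 41178 CPM in replicate 1 and 25703 CPM in replicate 2, with 8 of 12 detected and none at 0. Those not detected were Mir124a-1, Mir124a-2, Mir124a-3 and Mir9-2, and Mir128-1 had the highest mean, 13876 CPM. The list holds 3 genes each of miR-124a and miR-9. Reads with several matches are taken to be in no gene's count. Low counts of these genes are therefore not read as low levels of miR-124a or miR-9. The 5 epithelial genes summed to 85.9 and 82.3 CPM, the 3 liver genes to 76.2 and 94.9 CPM, and the 6 striated muscle genes to 43.7 and 48.0 CPM, where the 4 genes of miR-1a and miR-133a were at 0. Each of these 4 shares 20 bases or more with another hairpin, and reads with several matches may be in no gene's count. Their zeros are therefore not read as absence of muscle. The 3 erythroid genes summed to 814 CPM in replicate 1 and 56.6 CPM in replicate 2.

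The miR-344 genes held a small share of the reads assigned to a gene, which leave out reads with several matches. Together the 7 members had 129 reads in replicate 1 and 54 in replicate 2, which is 48.2 CPM (40.5 to 57.2) and 30.9 CPM (23.7 to 40.3). Their share of assigned reads averaged 0.00395% ± 0.00122 (SD, n = 2). Reads were assigned to 4 members, Mir344b, Mir344c, Mir344f and Mir344g, and the other 3, Mir344, Mir344e and Mir344i, had 0 reads in both libraries. At 2 CPM or more in both libraries, 3 of the 7 members were detected, against 20.1% of all 2202 genes. Of all genes 1458 (66.2%) had no read in either library.

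Mir344g had the highest mean of the members. It had 38 reads (14.2 CPM, 10.3 to 19.5) in replicate 1 and 36 reads (20.6 CPM, 14.9 to 28.5) in replicate 2, a mean of 17.4 ± 4.51 CPM (SD, n = 2). Its intervals in the libraries overlap. Among the 442 detected genes, 136 (30.8%) had a lower mean than Mir344g, and the median of these genes was 89.4 CPM. Its hairpin has the highest GC content of the members, 62.0%, and is printed here with the mature arms in capitals (RefSeq, chr7:61982289-61982359, minus strand).
Mir344g: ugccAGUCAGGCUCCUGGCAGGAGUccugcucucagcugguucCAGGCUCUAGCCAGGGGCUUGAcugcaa

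Mir344b was the member that differed most between the libraries. It had 57 reads (21.3 CPM, 16.4 to 27.6) in replicate 1 and 5 reads (2.86 CPM, 1.22 to 6.69) in replicate 2, a mean of 12.1 ± 13.0 CPM (SD, n = 2). It was high in replicate 1 and close to the detection minimum in replicate 2, and the intervals do not overlap. Its hairpin, with the mature arms in capitals, is the shortest of the members (RefSeq, chr7:61790519-61790581, minus strand).
Mir344b: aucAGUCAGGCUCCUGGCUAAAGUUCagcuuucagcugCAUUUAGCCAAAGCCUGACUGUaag

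Mir344f had 25 reads (9.34 CPM, 6.32 to 13.8) in replicate 1 and 10 reads (5.71 CPM, 3.10 to 10.5) in replicate 2, a mean of 7.52 ± 2.56 CPM (SD, n = 2). Mir344c, which shares both its seeds with Mir344, was the lowest member with reads, at 9 reads (3.36 CPM, 1.77 to 6.39) and 3 reads (1.71 CPM, 0.583 to 5.04). It passed 2 CPM in replicate 1 and missed it in replicate 2, so it was not called detected. The order of the means was Mir344g, Mir344b, Mir344f, Mir344c. The range of Mir344g over the libraries lay above those of Mir344f and Mir344c, and the range of Mir344f above that of Mir344c. The range of Mir344b, 2.86 to 21.3 CPM, overlapped those of the other 3, so its place in the order is not set by these libraries. Ranges over 2 libraries leave out counting error. In replicate 1 the interval of Mir344f overlapped those of Mir344g and Mir344c, so the order of these members is a description only. The order was the same per 100 bases of hairpin.

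**Figure D1:**
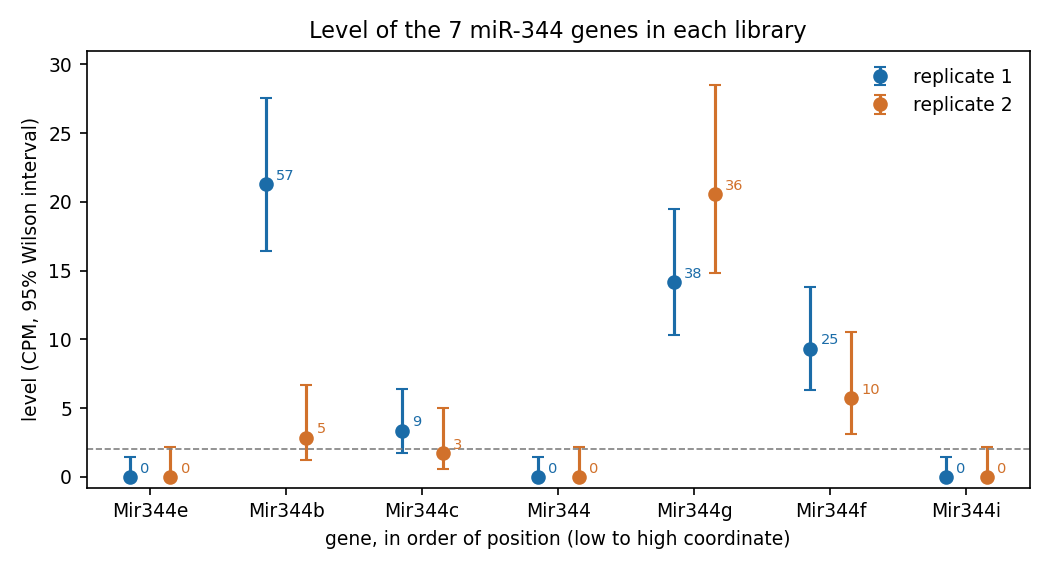
Level in CPM of each of the 7 members in replicate 1 (left, blue) and replicate 2 (right, orange), in order of position, with 95% Wilson intervals, the read count beside each point and a dashed line at 2 CPM. Mir344b stands at 21.3 CPM in replicate 1 and 2.86 CPM in replicate 2, while the intervals of Mir344g, Mir344f and Mir344c overlap between the libraries, and Mir344e, Mir344 and Mir344i are at 0.

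The make-up of the family's reads differed between the libraries. Mir344b held 44.2% of the members' reads in replicate 1 and 9.26% in replicate 2, and Mir344g held 29.5% and 66.7%. Mir344f held 19.4% and 18.5%, and Mir344c 6.98% and 5.56%. By read count the leading member was Mir344b in replicate 1 and Mir344g in replicate 2. In replicate 1 their intervals, 16.4 to 27.6 CPM and 10.3 to 19.5 CPM, overlap.

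The libraries were compared gene by gene. A two-sided Fisher's exact test set the reads of a gene against all other assigned reads. Genes at 2 CPM or more in either library were tested, and a gene was called at a Benjamini-Hochberg adjusted p under 0.05 over all tested genes if its log2 ratio was also 1 or more in size. This compares the 2 libraries and not conditions. Of 542 tested genes, 65 (12.0%) were called, and 34 (6.27% of those tested) were called higher in replicate 1. Of the 7 members, 4 were tested and 1 was called, Mir344b, with a log2 ratio of replicate 1 over replicate 2 of 2.77 (95% exact binomial interval 1.59 to 4.57, adjusted p = 1.33e-07 by Fisher's exact test). Among the 442 detected genes, 5 had a log2 ratio larger in size than that of Mir344b, and the median size was 0.35. The summed level of the erythroid list was also higher in replicate 1, at 814 CPM against 56.6 CPM in replicate 2, with 2 of 3 genes higher there and Mir486 not. That of the neuron-associated list was 41178 CPM against 25703 CPM, with 10 of 12 genes higher in replicate 1 and Mir138-1 and Mir124a-2 not. Higher here means a higher CPM by any amount, and of these 12 genes only Mir153 and Mir9-3 were called. The liver and striated muscle lists went the other way, at 76.2 against 94.9 CPM and 43.7 against 48.0 CPM. The epithelial list was at 85.9 against 82.3 CPM. The part of these lists in the value of Mir344b was not tested.

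The other 3 tested members did not pass. The log2 ratio was 0.67 for Mir344f (interval -0.40 to 1.93, adjusted p = 0.351 by Fisher's exact test) and 0.83 for Mir344c (-1.03 to 3.49, adjusted p = 0.526 by the same exact test). Mir344g had the opposite sign, at -0.54 (-1.23 to 0.16, adjusted p = 0.221 by the same exact test). With 12 to 74 reads per gene over both libraries, these intervals include ratios of 1 or more in size. The median log2 ratio of the 4 tested members was 0.75, against 0.091 over all 542 tested genes, and the 3 members at 0 entered neither. Mir344c was tested only because it passed 2 CPM in replicate 1. The members' median therefore depends in part on that minimum, and no shift of the family is read from it. Summed over the members, the log2 ratio was 0.63 (0.17 to 1.13). Without Mir344b it was -0.063 (-0.60 to 0.50), from 26.9 CPM in replicate 1 and 28.0 CPM in replicate 2, so the higher sum in replicate 1 rests on Mir344b.

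**Figure D2:**
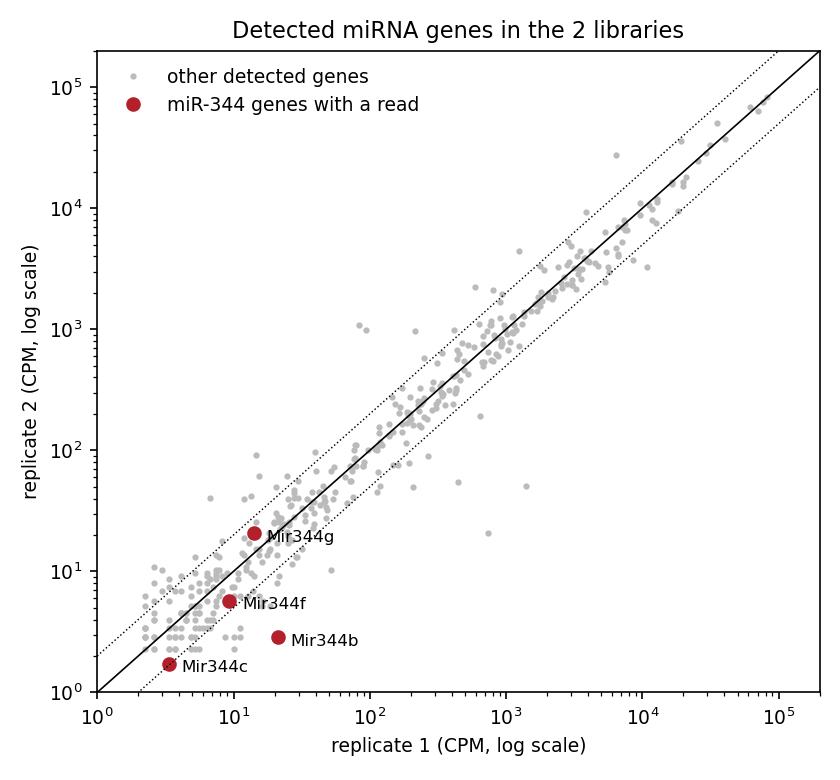
CPM of each detected miRNA gene in replicate 1 (x axis) and replicate 2 (y axis), both on log scales, with the 4 members that had reads in red, a solid line of equal level and dotted lines at a 2-fold difference. Mir344b lies below the lower dotted line, while Mir344g, Mir344f and Mir344c lie between the dotted lines, among the genes of low level.

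The members with and without reads differed in how far their sequence recurs in other hairpins. Each listed mature miRNA was searched, letter for letter, in the 2202 hairpins of the annotation, and not in the rest of the genome. For the 4 members with reads, Mir344b, Mir344c, Mir344f and Mir344g, no listed mature miRNA was found in another hairpin. For the 3 members at 0, at least 1 was. Both miR-344-5p and miR-344-3p are also in Mir344-2, and miR-344i is also in Gm24923. Of Mir344e, miR-344e-5p is also in Mir344h-1 and Mir344h-2, while miR-344e-3p was in no other hairpin. The longest stretch identical to another hairpin was 19 to 24 bases in the 4 members with reads and 25 to 39 bases in the 3 at 0. The Gm hairpins of the region did not follow this split. Gm24923 shares 38 bases and had 1 read in each library, while Gm25533 and Gm23917 share at most 16 and 22 and had 0. How stretches and reads go together over all 2202 hairpins is not given here. If reads with several matches are in no gene's count, as taken above, a count of 0 for Mir344 and Mir344i sets no limit on their listed mature miRNAs. How many reads of these miRNAs were mapped to more than 1 place is not given by the counts, and the part of this in the zeros was not tested.

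Mir344i and Gm24923 show how close such copies are. The hairpins of 88 bases lie 6417 bases apart and differ by C39T, T67C and A74G (Mir344i first, positions from 1 at the 5′ end). The differing bases are in capitals (GENCODE M21, minus strand, Mir344i at chr7:62085223-62085310 and Gm24923 at chr7:62078718-62078805).
Mir344i: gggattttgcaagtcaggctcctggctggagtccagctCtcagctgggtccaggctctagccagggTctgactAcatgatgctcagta
Gm24923: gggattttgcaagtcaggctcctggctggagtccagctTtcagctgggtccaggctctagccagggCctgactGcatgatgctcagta
Mir344i had 0 reads in both libraries and Gm24923 had 1 read in each.

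**Figure D3:**
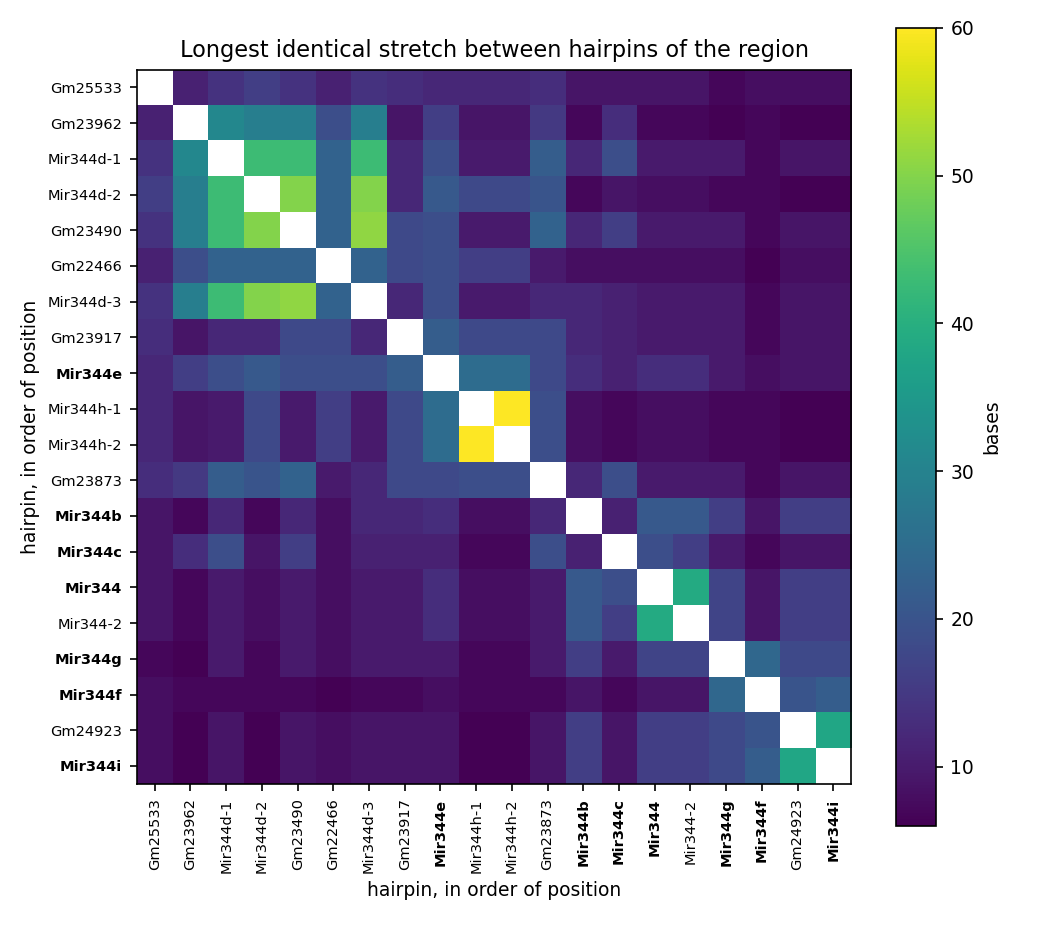
Longest identical stretch, in bases (colour), between each pair of the 20 hairpins of the region in order of position, with the members in bold and a hairpin's match to itself left white. Mir344h-1 and Mir344h-2 are identical over 60 bases, Mir344 and Mir344-2 share 39 and Mir344i and Gm24923 share 38, while Mir344c shares at most 19 with any other hairpin.

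The genes with a copy number were all at 0. None of the 6 had a read in either library, and for each of them at least 1 mature miRNA is in another hairpin. The mature miR-344d-1-5p, miR-344d-2-5p and miR-344d-3-5p, however, were in no other hairpin, and the part of shared sequence in these zeros was not tested. The mature miR-344d-3p is in 5 hairpins, those of Mir344d-1, Mir344d-2 and Mir344d-3 and the Gm hairpins Gm23490 and Gm23962. Of the 7 Gm hairpins, 3 had a read, Gm22466, Gm23873 and Gm24923, with 3 reads in all in replicate 1 and 1 in replicate 2. The 20 hairpins together had 132 reads in replicate 1 and 55 in replicate 2, of which the 4 members with reads held 129 and 54.

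**Figure D4:**
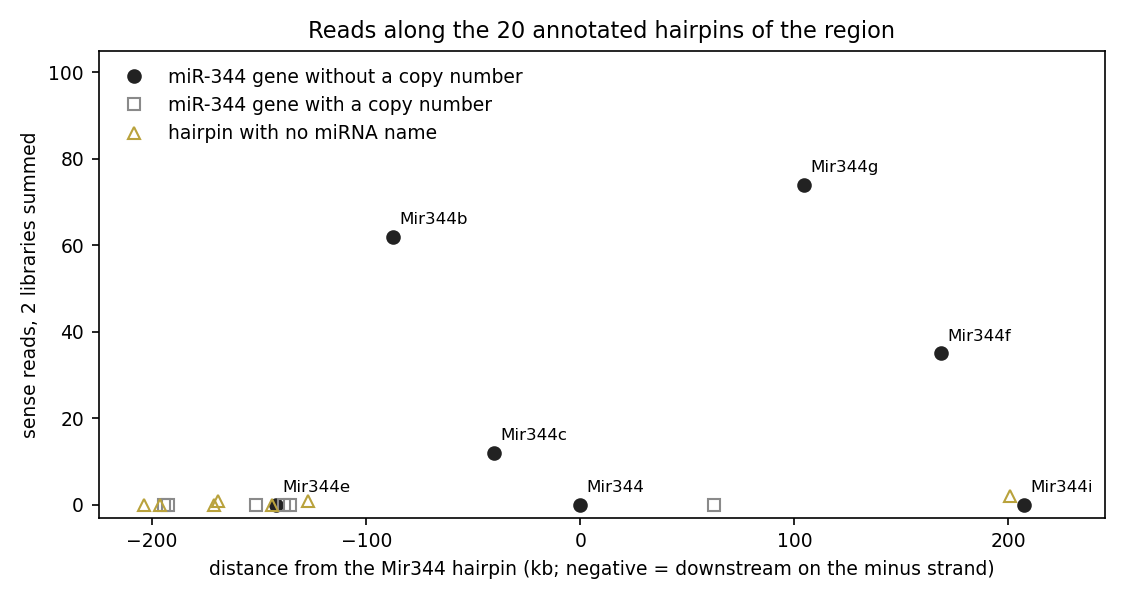
Sense reads of both libraries summed (y axis) for the 20 annotated hairpins of the region, against distance in kb from the Mir344 hairpin (x axis). Filled circles are the 7 members, open squares the 6 genes with a copy number and open triangles the 7 Gm hairpins. Mir344b and Mir344c are next to each other in the order of hairpins, as are Mir344g and Mir344f, and between these pairs lie Mir344 and Mir344-2, both at 0.

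The members with reads did not share 1 host gene. Mir344b and Mir344c lie in introns of A230057D06Rik together with Mir344e and Mir344, which had no reads. Mir344g lies at the 5′ end of A330076H08Rik and Mir344f lies outside both genes. GC content was 47.6% to 62.0% in the 4 members with reads and 45.5% to 56.8% in the 3 at 0. The minimum free energy of the folded hairpin was -43.5 to -34.4 kcal/mol in the members with reads and -56.8 to -38.3 kcal/mol in those at 0, so these ranges overlap.

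The genes that share a seed with a member from outside the family were counted as well. Mir410, whose gene lies in the imprinted miRNA cluster of chromosome 12, had 670 reads (250.2 CPM) in replicate 1 and 474 reads (271 CPM) in replicate 2, a mean of 261 ± 14.6 CPM (SD, n = 2). It carries the seed AUAUAAC of miR-344e-3p, whose gene had no read.
miR-410-3p: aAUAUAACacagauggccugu
Mir7070, which carries the seed AGGCUCU of miR-344g-3p, had 60 reads (22.4 CPM) and 48 reads (27.4 CPM), a mean of 24.9 ± 3.55 CPM. Its range over the libraries lies above that of Mir344g, which leaves out counting error. The 22.4 CPM of Mir7070 lies above the interval of Mir344g in replicate 1, 10.3 to 19.5 CPM. Its 27.4 CPM lies within that of replicate 2, 14.9 to 28.5 CPM. Since arms were not separated, these levels are not those of the arm with the seed.

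The detected genes nearest to Mir344g in level, by distance in log2(CPM + 1) over the 2 libraries, were Mir6516, Mir7666 and Mir7688, at distances of 0.11, 0.26 and 0.27. Mir6516 had 36 and 34 reads. Nearest to the summed members were Mir152, Mir504 and Mir1969, at 0.055, 0.12 and 0.17, and Mir152 had 131 and 56 reads. With 2 libraries, such nearness is a likeness of level only.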

How the data were processed

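MicroRNA sequencing of total RNA from 2 libraries of 1 group was used. The values deposited by the authors are raw counts of reads, 1 table per library with a row per miRNA gene. Their accompanying text names assembly mm10 and annotation M21. No source used here names the aligner, the counter or the trimming. Each file has 3 columns of counts, whose values show reads without regard to strand, on the gene's strand and on the opposite strand. The column for the gene's strand was used. Totals leave out 4 rows without a gene. Of all reads, those with several matches in the genome were 38.2% (replicate 1) and 28.3% (replicate 2), and unmapped reads 25.5% and 42.4%. CAST alleles that differ from mm10 were not accounted for.

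CPM, detection at 2 CPM, Fisher's exact test and the intervals were computed in Python 3.11.15 with numpy 2.4.6 and scipy 1.17.1, with 0.5 reads added for log2 ratios. Scaling by TMM used edgeR 4.0.16 in R 4.3.3, and hairpins were folded with ViennaRNA 2.7.2. Fisher's exact test was also run on simulated counts with counting error alone, which leaves out variation between animals. Members, copies, seed sharers, flanking genes and the nearest 3 genes were named by rule, and the Gm hairpins, the sum without Mir344b and the levels per hairpin length were chosen after the values were seen. The members and lists were chosen with earlier results of these data known. With 1 library per animal, p-values measure differences between these libraries only.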

Additional observations from a re-analysis of the deposited data

How the results depend on the processing

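Mir344b was the 1 member called with the unstranded counts, TMM totals, all genes with a read tested and no minimum on the ratio, and its log2 ratio lay between 2.66 and 2.78 over its alternatives (adjusted p 1.32e-07 to 2.86e-07 by Fisher's exact test). No tested member's ratio changed sign. The members' share of reads fell to 0.00175% with reads mapped to more than 1 place added to the total, and was 0.00309% without replicate 1 and 0.00482% without replicate 2. Members detected numbered 1 at a 10 CPM minimum, and 3 to 4 when a replicate was left out. The call over all genes numbered 229 without the minimum on the ratio, and 62 to 65 under the other settings. The log2 ratio of the summed members was -0.063 without Mir344b, an alternative chosen after seeing the data, and 0.58 to 0.64 under the others. No paired analysis was possible because there is 1 group. Leaving out a library leaves no test and no ratio. Depth limits the members at 3 to 57 reads.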
